A study of Rattus norvegicus with 109 samples.

Results

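The hypertensive and the normotensive rat strain were compared after the same brain injection, an anti-miR mixture labelled Cocktail. The comparison took every section labelled SHR Cocktail (17 sections from 5 rats) and every section labelled WKY Cocktail (27 sections from 4 rats), which is 44 of the 109 sections of the series. Each section was laser-captured from the NTS, the nucleus of the solitary tract, located with DAPI and NeuN staining, and in it 19 transcripts were measured by quantitative PCR. SHR is the spontaneously hypertensive rat, an inbred strain that develops high blood pressure. WKY is the Wistar Kyoto rat, the normotensive strain it is usually set against. The strains are described as age-matched, and no age was given. Both groups carried the treatment: per the labels' protocols, 25 uL of locked nucleic acid inhibitors of miR-376a and miR-135a at 10 uM, mixed in equal parts in artificial cerebrospinal fluid. The protocols call this mixture AM-Combo and the labels call the group Cocktail, which was read as the same condition. The control procedures, used below only where named, were Scrambled, a locked nucleic acid without a known target, and Sham, an empty needle.

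The NTS is the first relay in the brainstem for signals from the arterial baroreceptors, and through it blood pressure adjusts sympathetic and vagal output. Its catecholamine neurons, its angiotensin receptors and its local inflammatory signals are known to influence that reflex, and all 3 kinds of gene were on the panel. A microRNA lowers the output of transcripts that pair with its seed, and a locked nucleic acid inhibitor binds the mature microRNA and blocks it. The sequences of the targeted microRNAs are shown because they define what both groups received. The labels do not say which arm of either hairpin the inhibitors matched, so RefSeq's mature sequences of both arms are given (build GRCr8), with the seed, bases 2 to 8, in capitals. On chromosome 7 (minus strand) lie miR-135a-5p at chr7:28499221-28499243 and miR-135a-3p at chr7:28499183-28499204. On chromosome 6 (plus strand) lie miR-376a-5p at chr6:134559383-134559403 and miR-376a-3p at chr6:134559421-134559441.
rno-miR-135a-5p: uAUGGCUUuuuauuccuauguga
rno-miR-135a-3p: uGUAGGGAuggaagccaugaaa
rno-miR-376a-5p: gGUAGAUUcuccuucuaugag
rno-miR-376a-3p: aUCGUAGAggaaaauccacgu
No seed was shared between any of the 4 sequences.

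All values are minus ΔCt, a log2 level relative to a constant of the same section, so that a higher value means more RNA and 1 unit is 1 PCR cycle. That constant was the section's median Ct in the SHR Cocktail sections. In the WKY Cocktail sections it differed from the median by -0.91 to 0.66. The rat was the replicate: its sections were averaged first, and n counts rats. The SHR rats were numbered 1694, 1696, 4595, 4598 and 4602 and gave 4, 2, 9, 1 and 1 sections. The WKY rats were numbered 1701, 4607, 4612 and 4614 and gave 6, 9, 7 and 5 sections. Values per rat are listed below in these orders. The labels also name rat 4614 for 2 WKY Scrambled sections. A level says how much of a transcript there was relative to the others in a section, and fewer cells of a type and less RNA per cell cannot be told apart.

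Before normalisation, the median cycle number of each section was averaged over the sections of a rat. It was 13.7 ± 1.10 in SHR (SD, n = 5) and 15.3 ± 1.06 in WKY (SD, n = 4). The difference of -1.57 cycles gave an exact two-sided permutation p of 0.0635. It was -0.09 once the 5 WKY sections with a median above 18 cycles were left out. With the median over a rat's sections in place of the mean, it was -0.21 (exact permutation p = 0.857). Of the 836 Cocktail values, 66 were missing. Apart from Th and Dbh, which mark catecholamine neurons, the panel held no marker of neurons, glia or vessels, so the cell make-up of the sections was not tested. The chip that each section was run on was not given, and strain and run cannot be told apart. In 2 SHR sections of rat 4595, Th and Agtrap were both missing while 5 other reported genes lay outside the range of that rat's other sections. Within every one of the 4 WKY rats the sections are deposited in order of rising Ace, so the section names carry no position within the NTS that could be read here. A pair of sections of SHR rat 1694 was nearly identical (SD of the difference over genes 0.159), and so was a pair of WKY rat 4607 (0.289), against a median of 1.96 over 125 pairs of sections of the same rat. With these 2 pairs averaged first, and separately without the 2 sections of rat 4595, the same number of genes was called as reported next.

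Between the strains, 7 of the 19 genes differed (36.8%, limma with Benjamini-Hochberg adjusted p under 0.05). In SHR rats 2 were higher (10.5%), the leukotriene pathway gene Alox5ap and the angiotensin receptor partner Agtrap. In the same rats 5 were lower (26.3%): Jun, Ace, Agtr1a, Rgs4 and Il10. The median difference over all 19 genes was -0.23 on the log2 scale. This split of 2 higher and 5 lower depended on the scale. It was 1 and 5 with raw values centred on the section median or set relative to EiF4e, 1 and 0 with no normalisation, and 9 and 2 when centred on the median of the 4 genes with a value in every section, 2 of which (Ace and Rgs4) were themselves lower in SHR. Those last 2 scalings moved the median over all genes by 1.17 and 1.95. For 9 of the 19 genes (47.4%), among them the 7 called and Dbh, the rats of the strains did not overlap at all.

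**Figure D1:**
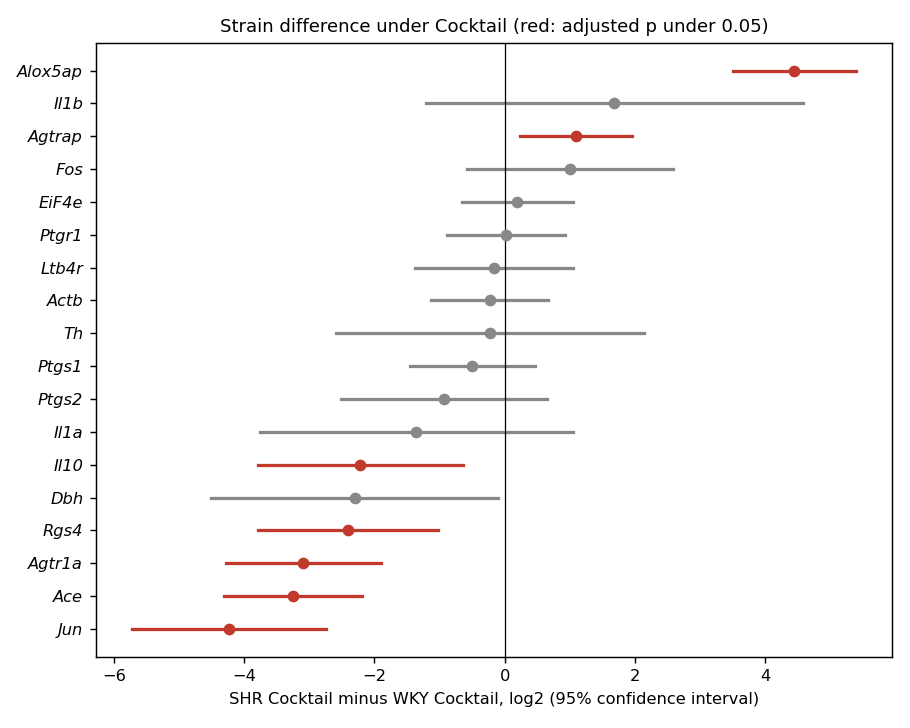
Difference in level for 18 genes, SHR Cocktail minus WKY Cocktail, on the log2 scale (horizontal axis). Points are limma estimates from means per rat (5 SHR, 4 WKY), lines their 95% confidence intervals and red an adjusted p under 0.05. Alox5ap stands alone at 4.44, and Jun, Ace and Agtr1a lie at -3.09 or lower.

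The angiotensin system produced calls in both directions. Angiotensin II is made by the enzyme that Ace encodes, and acts on neurons mainly through the type 1 receptor. Agtr1a encodes 1 form of that receptor in the rat, and Agtr1b, which encodes another, was not on the panel. The product of Agtrap binds that receptor and promotes its internalisation. Of the 3 reported members of this list, 1 was higher in SHR and 2 were lower (10.5% and 26.3% over all genes). Their median difference of -3.09, against -0.23 over all genes, is simply the value of Agtr1a. As the 3 genes went in both directions, it does not describe the list as a whole.

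Ace stood at 0.75, 0.05, 1.02, 1.24 and 0.99 in the SHR rats, and at 4.19, 4.38, 4.85 and 2.83 in the WKY rats. The lowest WKY rat was 1.59 above the highest SHR rat. The means were 0.81 ± 0.46 (SD, n = 5) and 4.06 ± 0.87 (SD, n = 4), a difference of -3.25 (standard error 0.502, limma, adjusted p = 4.70e-05). This is 9.53-fold higher in WKY, with a 95% interval from 4.58 to 19.8. At the level of sections, 25 of 27 WKY sections lay above every SHR section. The lowest WKY section, at -3.05, came from rat 4614 and had a median of 21.4 cycles. The other 4 sections of that rat lay between 3.85 and 4.92, and without the sections above 18 cycles the strain difference was -3.63.

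Agtr1a stood at -3.77, -5.11, -5.96, -3.50 and -4.41 in the SHR rats, and at -1.28, -1.01, -2.18 and -1.35 in the WKY rats. Every SHR rat was below every WKY rat, with a gap of 1.31. The means were -4.55 ± 1.01 (SD, n = 5) and -1.46 ± 0.51 (SD, n = 4), and the difference was -3.09 (standard error 0.565, limma, adjusted p = 0.000176), which is 8.52-fold higher in WKY (95% interval 3.74 to 19.4). Of 26 WKY sections with a value, 20 lay above all 16 SHR sections with one.

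Agtrap went the other way, at 1.73, 0.94, 1.03, 1.85 and 1.22 in the SHR rats, against 0.61, 0.71, 0.40 and -0.71 in the WKY rats. The rats did not overlap, but the gap of 0.23 was the smallest of the 7 called genes. The difference of 1.10 (standard error 0.410, limma, adjusted p = 0.0424) is 2.14-fold higher in SHR, with an interval from 1.18 to 3.89. This call was the least steady of the 7. Without WKY rat 4614, whose section of 21.4 cycles read -3.94, the difference was 0.78 and the adjusted p 0.140, and the call was also lost without WKY rat 4612 and without any one of SHR rats 1694, 4595, 4598 and 4602 (0.0505 to 0.0920). It was lost too with raw values centred on the section median (0.0824). Agtrap had no value in 2 SHR sections, both of rat 4595, and a value in every WKY section. With gaps filled by the lowest Agtrap value the difference was 0.88 (limma, adjusted p = 0.279), and the call was lost. With gaps set at the cycle limit the difference was 0.32 (limma, adjusted p = 0.792).

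Of the leukotriene genes, Alox5ap encodes the activating protein that presents arachidonic acid to 5-lipoxygenase, the first step of leukotriene synthesis, Ltb4r a receptor for leukotriene B4, and Ptgr1 an enzyme that inactivates leukotriene B4 and prostaglandins. Among these 3 genes, Alox5ap was higher in SHR and the other 2 did not pass, and the list's median was 0.02. This is 1 of 3, close to the 36.8% called over all genes.

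Alox5ap stood at 0.74, -0.01, 1.18, 2.45 and 1.62 in the SHR rats, and at -3.53, -3.23, -2.82 and -3.41 in the WKY rats. The lowest SHR rat was 2.81 above the highest WKY rat, the widest gap among the 18 reported genes. The means were 1.20 ± 0.92 (SD, n = 5) and -3.25 ± 0.31 (SD, n = 4). The difference of 4.44 (standard error 0.451, limma, adjusted p = 2.73e-07) is 21.8-fold higher in SHR, with an interval from 11.3 to 42.0. It did not need the averaging, as all 17 SHR sections lay above all 22 WKY sections with a value, from -0.11 to 3.53 against -5.53 to -1.83.

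Alox5ap had a value in every SHR section and none in 5 of 27 WKY sections, at least 1 in each WKY rat. Those 5 were exactly the WKY sections with a median above 18 cycles (20.7 to 23.1), and no SHR section was that late. The share of sections without a value averaged 0.0% in SHR and 18.3% in WKY, with an exact two-sided permutation p of 0.0159, the smallest that 5 against 4 rats allow. Adjusted over the 4 genes tested for missing values, it was 0.0635. Ptgs1, missing in 4 of these 5 sections, and Il10, missing in 3 of them, had no other gap in either strain. Both were under the 10% of missing sections required for the test and were not tested for it. A transcript below the detection limit and a failed reaction cannot be told apart. With each gap set to the lowest Alox5ap value the strain difference was 5.11, and without the 5 late sections, which leaves no gap, it was 4.44.

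Alox5ap was also separated by strain in the raw cycle numbers, before any normalisation. SHR rats reached threshold at 11.2, 13.8, 13.4, 12.2 and 12.2 cycles, and WKY rats at 18.9, 16.1, 17.8 and 15.9 cycles. Set against each of the 18 other genes of the same section in turn, Alox5ap was higher in SHR against all 18, and with each of them the rats of the strains did not overlap. Jun was lower against all 18, with no overlap for 11, Ace against 17 (12) and Agtr1a against 16 (11). Agtrap was higher against 15 (9 without overlap). These counts describe the same values in pairs and were given no test.

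Ltb4r averaged 1.90 ± 0.69 in SHR (SD, n = 5) and 2.07 ± 0.68 in WKY (SD, n = 4), a difference of -0.17 with an interval from -1.37 to 1.04 (limma, adjusted p = 0.868). Ptgr1 averaged -0.84 ± 0.62 in SHR and -0.86 ± 0.39 in WKY, a difference of 0.02 with an interval from -0.88 to 0.92 (adjusted p = 0.965). A change of about 1 in either direction is therefore within the interval for Ltb4r and just outside it for Ptgr1.

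**Figure D2:**
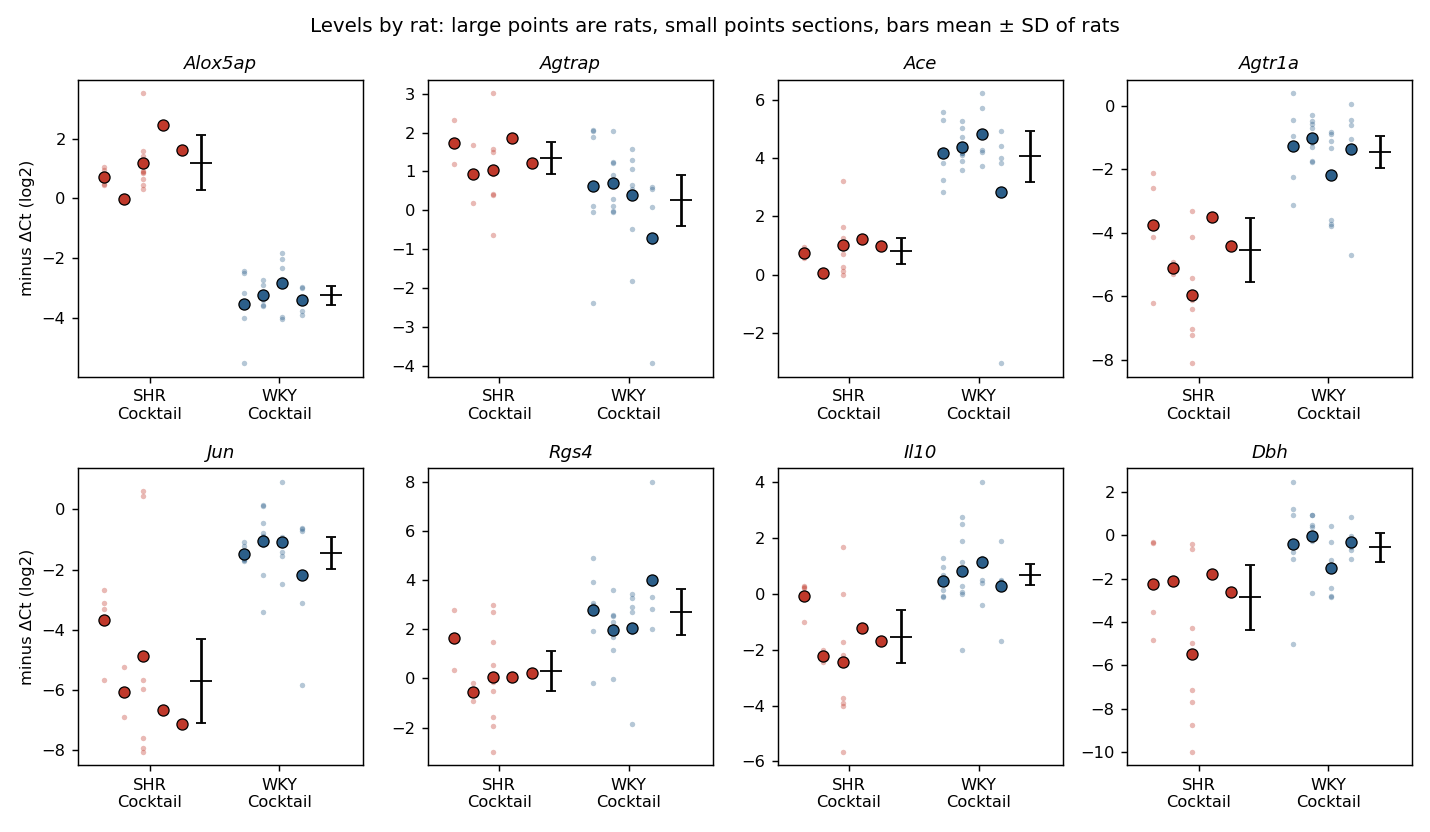
Levels (minus ΔCt, log2) of the 7 genes called between the strains and of Dbh, SHR Cocktail in red on the left and WKY Cocktail in blue on the right of each panel. Large points are means per rat in the order of the rat numbers, small points are single sections, and bars show the mean ± SD over rats. Alox5ap has no overlap even between sections, while in Jun 2 red sections of rat 4595 sit at 0.44 and 0.60 among the WKY values.

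The immediate-early genes, whose products pair as the transcription factor AP-1 and which neurons induce within minutes of stimulation were represented by Jun and Fos. Of these 2 members, 1 was lower in SHR and 1 did not pass, where 26.3% of all genes were lower and 36.8% were called. Jun stood at -3.69, -6.07, -4.88, -6.65 and -7.13 in the SHR rats, against -1.47, -1.06, -1.09 and -2.19 in the WKY rats. Every SHR rat was lower, by a gap of 1.5. The difference of -4.23 (standard error 0.708, limma, adjusted p = 8.35e-05) is 18.8-fold higher in WKY, with an interval from 6.69 to 52.7.

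Jun varied more among sections than the other called genes, with an SD within rats of 1.95 in a mixed model, against 0.86 for Alox5ap and 1.34 for Ace. The 2 sections of SHR rat 4595 without Th and Agtrap read 0.44 and 0.60 for Jun, whereas the 5 others of that rat with a value lay between -8.05 and -5.66. The same 2 sections were also at WKY-like levels for Il10 (0.0 and 1.69, with the rat's others from -5.66 to -1.71), Rgs4 (2.71 and 3.0, others from -2.99 to 1.48) and Dbh (-0.64 and -0.39, others from -10.0 to -4.30). Their EiF4e values of 3.66 and 4.41 were above the highest of the others, 3.33. For Ace (0.72 and 1.09) and Alox5ap (0.44 and 0.93) they stayed within the range of that rat and far from WKY. Without them the Jun difference was -4.66, and Jun, Il10 and Rgs4 were still called.

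Fos stood at -0.57, 0.56, 0.28, -0.20 and 0.0 in the SHR rats and at -2.0, -0.38, -0.84 and -0.75 in the WKY rats, so that 4 of 5 SHR rats were above all WKY rats. The difference of 1.00 (standard error 0.750, interval from -0.57 to 2.58) did not pass (limma, adjusted p = 0.365). Without the sections above 18 cycles it was 0.38, as 2 of the lowest WKY Fos values, -6.01 and -5.33, came from such sections.

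Rgs4 encodes a regulator that shortens G protein signalling, including that of angiotensin and adrenergic receptors. It stood at 1.65, -0.56, 0.06, 0.06 and 0.24 in the SHR rats, against 2.77, 1.97, 2.06 and 3.99 in the WKY rats. The rats did not overlap, with a gap of 0.32. The means were 0.29 ± 0.82 (SD, n = 5) and 2.70 ± 0.93 (SD, n = 4), and the difference was -2.41 (standard error 0.654, limma, adjusted p = 0.00674), which is 5.31-fold higher in WKY (interval 2.04 to 13.8). The sections overlapped widely, with 9 of 27 WKY sections above all SHR sections.

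Of the 3 cytokines, Il10, which restrains inflammation, was lower in SHR (26.3% over all genes), and the 2 interleukin-1 genes, which promote it, did not pass. The median of the 3 was -1.36. Il10 stood at -0.07, -2.23, -2.43, -1.24 and -1.71 in the SHR rats, and at 0.47, 0.83, 1.13 and 0.30 in the WKY rats. The strains were separated by a gap of 0.37 that rested on SHR rat 1694. The difference was -2.22 (standard error 0.745, limma, adjusted p = 0.0263), which is 4.65-fold higher in WKY (interval 1.57 to 13.8). Il10 had no value in 3 WKY sections and in no SHR section. With gaps filled by the lowest Il10 value the difference was -0.96 (limma, adjusted p = 0.466), and the call was lost. All 3 gaps lay in WKY sections with a median above 18 cycles, and without the 5 sections of that kind the difference was -2.31 and passed (limma, adjusted p = 0.00162). The call was also lost without SHR rat 4595 (adjusted p = 0.0606) or 4602 (0.0511), without WKY rat 4607 (0.0527) or 4612 (0.0660), and relative to Actb (0.0597).

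Il1a averaged -4.84 ± 1.57 in SHR (SD, n = 5) and -3.48 ± 0.96 in WKY (SD, n = 4), a difference of -1.36 with an interval from -3.76 to 1.04 (limma, adjusted p = 0.365). Il1b was at -5.16 ± 1.02 (SD, n = 4) in SHR, since rat 1696 had no value, and at -6.84 ± 2.42 (SD, n = 4) in WKY. Its difference of 1.68 ran from -1.21 to 4.58 (limma, adjusted p = 0.365). Il1b was missing in 6 of 17 SHR sections and 14 of 27 WKY sections, which makes it the least complete of the reported genes. A single WKY section of rat 4614 reached 2.84, against a median of -7.76 over WKY sections.

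The cyclooxygenase genes, the first step of prostaglandin synthesis, showed 0 calls among 2 members (36.8% over all genes), with a median of -0.71. The constitutive Ptgs1 was at -1.74 ± 0.86 in SHR (SD, n = 5) and -1.25 ± 0.43 in WKY (SD, n = 4), a difference of -0.50 (interval -1.46 to 0.47, limma, adjusted p = 0.397). At -0.885 it passed when rats were weighted by their sections (limma, adjusted p = 0.0396) and in the mixed model on sections (adjusted p = 0.0355). That model put the spread between rats at 0 for Ptgs1, so its sections counted as independent replicates (38 degrees of freedom). On means per rat the strains overlapped (exact permutation, adjusted p = 0.431). The inducible Ptgs2 was at -5.19 ± 0.75 in SHR (SD, n = 4, with no value in rat 4598) and -4.26 ± 1.33 in WKY (SD, n = 4), a difference of -0.93 (interval -2.51 to 0.65, limma, adjusted p = 0.365). Ptgs2 was missing in 5 of 17 SHR and 6 of 27 WKY sections. Ptgs1 was missing in 0 SHR sections, against 14.8% of the WKY sections.

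The catecholamine genes encode steps of noradrenaline synthesis, Th the first and rate-limiting one and Dbh the conversion of dopamine to noradrenaline. They gave 0 calls among 2 (36.8% over all genes). Dbh stood at -2.25, -2.13, -5.49, -1.78 and -2.63 in the SHR rats, and at -0.38, -0.03, -1.51 and -0.29 in the WKY rats. Although no rat overlapped, the difference of -2.30 (standard error 1.05, interval -4.50 to -0.10) gave an adjusted p of 0.0879 in limma, where all 6 groups of the series share 1 estimate of the spread. Fitted on the 9 Cocktail rats alone it passed (limma, adjusted p = 0.0101). It also passed the exact permutation test of the rats (adjusted p = 0.0335, 9 genes passing), but that pass restates the lack of overlap. Every gene without overlap gets the smallest p that test allows, 0.0159. Th was at 3.14, 4.77, 1.06, 5.31 and 4.33 in SHR and at 4.32, 3.48, 3.10 and 4.91 in WKY. The strains overlapped, and the difference of -0.23 had a wide interval from -2.59 to 2.14 (limma, adjusted p = 0.887). SHR rat 4595 was the lowest of all 9 rats for both genes.

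Of the usual reference genes, Actb (cytoskeletal actin) averaged 7.07 ± 0.69 in SHR and 7.30 ± 0.32 in WKY, and EiF4e (the cap-binding translation factor, spelled as in the table) 2.47 ± 0.51 in SHR and 2.28 ± 0.36 in WKY (SD, n = 5 and 4). Their differences of -0.23 (interval -1.13 to 0.67, limma, adjusted p = 0.760) and 0.19 (interval -0.66 to 1.04, adjusted p = 0.764) did not pass. For Actb the sign turned with the 4-gene scaling, where it was 1.72 and passed (limma, adjusted p = 0.00377). With levels set relative to Actb or EiF4e in place of the deposited scale, Alox5ap was at 4.42 and 4.59, Ace at -3.02 and -3.44, Agtr1a at -2.91 and -3.24, and Jun at -4.07 and -4.48, all called.

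**Figure D3:**
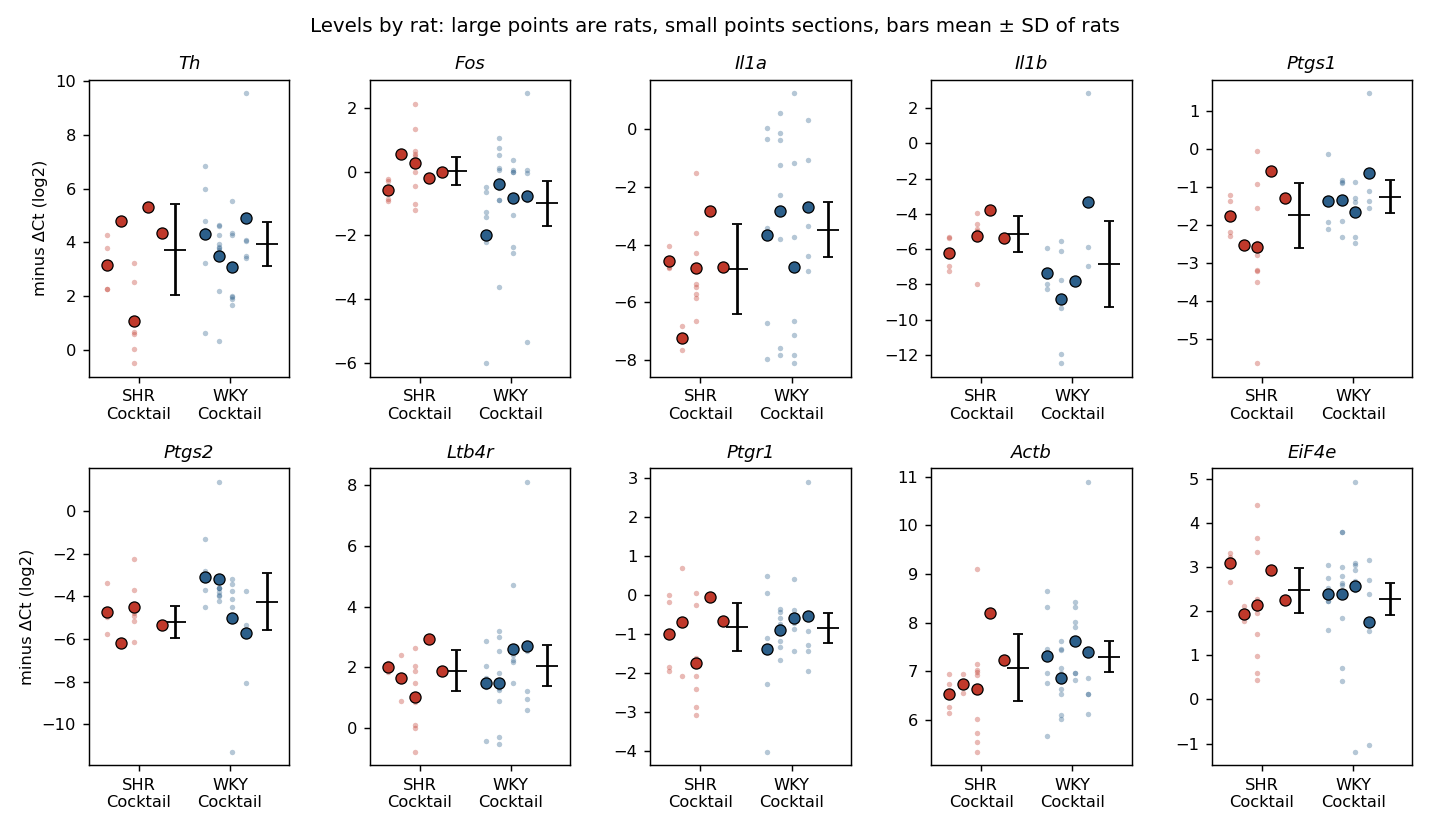
Levels (minus ΔCt, log2) of the 10 reported genes that are not among the 7 called and Dbh, SHR Cocktail in red on the left and WKY Cocktail in blue on the right. Large points are means per rat, small points single sections and bars the mean ± SD over rats. The rats of the strains overlap in all 10 panels, and several of the outermost WKY sections belong to rat 4614.

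**Figure D4:**
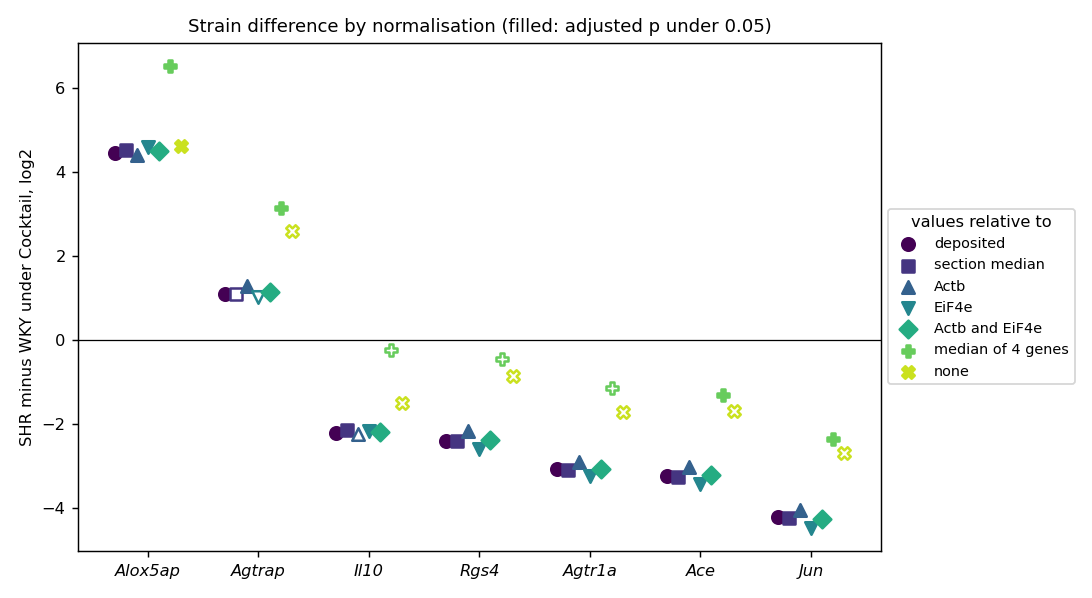
Strain difference (SHR minus WKY under Cocktail, log2, vertical axis) of the 7 called genes under the deposited scale and 6 others, told apart by colour and marker. Filled markers have a limma adjusted p under 0.05. Signs are the same under all 7 scales, and with no normalisation only Alox5ap, at 4.61, was called.

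The size of the calls depended on the scale while their signs did not. With no normalisation, which leaves the earlier cycle numbers of the SHR sections in place, Alox5ap differed by 4.61 (limma, adjusted p = 0.00146) and was the only call. Jun was then at -2.69 (adjusted p = 0.148), Agtr1a at -1.72 (0.333), Ace at -1.70 (0.320), Il10 at -1.51 (0.413) and Rgs4 at -0.85 (0.605). Agtrap was at 2.59 (0.128), with raw values of 10.2, 12.9, 13.9, 12.8 and 12.6 cycles in the SHR rats and 15.7, 14.1, 15.5 and 14.8 cycles in the WKY rats. Centred on the 4 genes with a value in every section, Ace was at -1.31 and Jun at -2.36, both called, Agtr1a at -1.15 (adjusted p = 0.0761), Rgs4 at -0.46 (0.529) and Il10 at -0.23 (0.772).

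The strain difference after Cocktail was last set against the strain difference after the control procedures, which asks whether it belongs to the anti-miR injection. The controls were 2 Scrambled rats and 1 Sham rat in SHR and 5 Scrambled and 3 Sham rats in WKY. The labels of rat 4614 place it in WKY Cocktail for some sections and in WKY Scrambled for others. Its means in the 2 groups entered the fits as if from separate rats. With this number left out of both groups, the Cocktail strain difference of Agtrap was 0.78 and did not pass (limma, adjusted p = 0.137). The other called genes still passed. Tested as a difference of differences, 0 of 19 genes passed (0.0%, limma adjusted p under 0.05), and 0 had an unadjusted p under 0.05. The 5 genes of smallest p all had an adjusted p of 0.872 and were Il1b (-2.87, interval -7.01 to 1.27), Agtr1a (1.16, -0.57 to 2.90), Ptgs2 (-1.43, -3.80 to 0.95), EiF4e (0.72, -0.52 to 1.97) and Jun (1.12, -1.06 to 3.29). For Il1b the 2 SHR Scrambled rats were far apart, at -0.04 in rat 4600 and -5.42 in rat 4604, and the contrast was -1.52 without rat 4600 and -4.21 without rat 4604, in neither case passing. For Ptgs2 rat 4600 gave the only SHR Scrambled value (-1.15), and without it the contrast could not be fitted.

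The constant subtracted was the section median in all SHR control sections. It differed from the median by -0.40 on average in WKY Scrambled and -0.26 in WKY Sham sections, against -0.01 in WKY Cocktail. The strain differences under the controls therefore carry an offset of scale that the one under Cocktail hardly has. For Alox5ap the strain difference was 4.44 under Cocktail, 4.07 under Scrambled and 4.48 under Sham, and Cocktail minus controls came to 0.17 with an interval from -1.21 to 1.56. For Ace it was -3.25, -3.60 and -3.91, and Cocktail minus controls came to 0.50 (-1.04 to 2.04). Jun had -4.23 under Cocktail, -4.96 under Scrambled and -5.73 under Sham. Agtr1a had -3.09, -4.38 and -4.13. In the same order, Rgs4 had -2.41, -4.50 and -1.61, Il10 -2.22, -1.32 and -3.01, and Agtrap 1.10, 0.54 and 1.17. For Rgs4, Il10 and Agtrap the size of the strain difference thus varied between the control procedures. The intervals of Cocktail minus controls are wide. For most genes they include changes of the strain difference by 1 cycle or more in either direction. The rats at hand therefore do not show that Cocktail left the strain difference as it was.

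**Figure D5:**
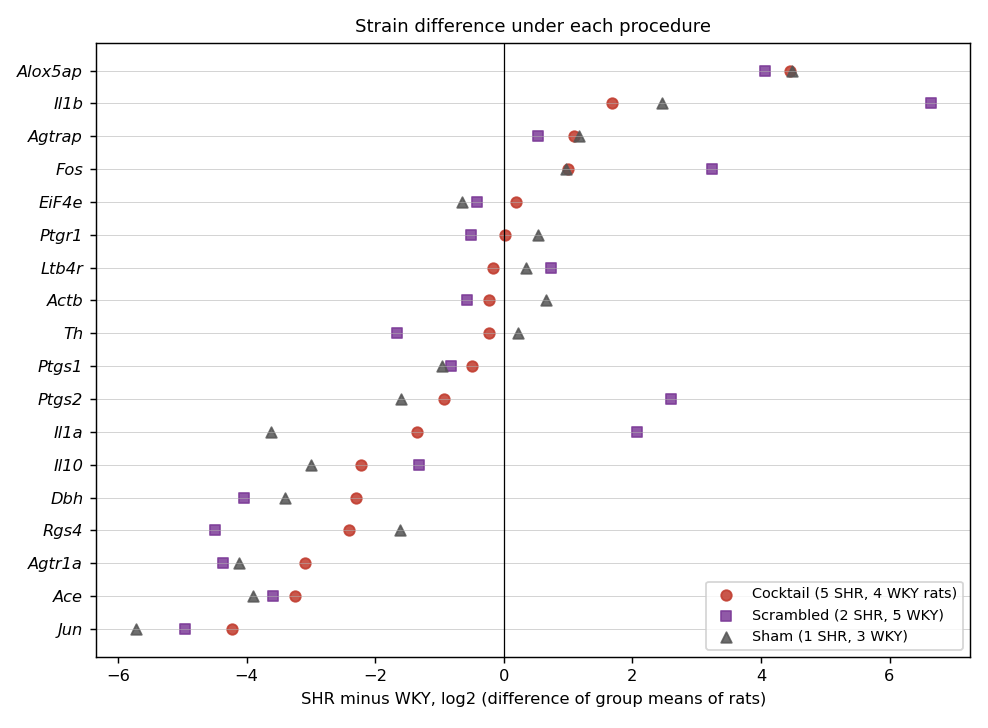
Strain difference (SHR minus WKY, log2, horizontal axis) of 18 genes under Cocktail (5 SHR, 4 WKY rats), Scrambled (2 SHR, 5 WKY) and Sham (1 SHR, 3 WKY), as differences of group means of rats. Fewer rats had a value for Il1b (4 in SHR Cocktail, 4 in WKY Scrambled) and Ptgs2 (4 in SHR Cocktail, 1 in SHR Scrambled). The 7 genes called under Cocktail have the same sign under all 3 procedures, with Alox5ap at 4.44, 4.07 and 4.48, and the markers lie furthest apart for Il1a and Il1b.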

How the data were processed

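Ct values were called with the Fluidigm analysis software from 2 formats of BioMark chip with EvaGreen and 30 cycles, per the labels' protocols. The deposited raw table holds these cycle numbers, a score that falls as RNA rises. The deposited normalised table is on a log2 scale: each value plus the raw Ct of its section is constant over genes. That constant was the section's median Ct in all 17 SHR Cocktail sections and differed from it by -0.0091 ± 0.417 (SD) over the 27 WKY sections, so all sections were also centred on the median as an alternative. The names of 24 WKY Cocktail sections differed between the tables and were matched by their values within the same rat. The genome build of the assays was not given in the sources used here.

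Sections were averaged within each rat. The 20 means per gene (6 groups) were fitted with limma 3.58.1 in R 4.3.3, two-sided, with Benjamini-Hochberg adjustment over 19 genes at 0.05. Means per rat were also compared by exact permutation (126 labellings) and sections by mixed models (lmerTest 3.1.3, lme4 1.1.37). For some genes, among them Alox5ap, Jun and Ptgs1, the mixed model put the spread between rats at 0 and so counted sections as independent. Folds assume a doubling per cycle. Missing values were left out. The scripts were tested on simulated data. For 1 of the 19 genes no values are given here, although it entered the fits and counts.

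The comparison and the gene lists were chosen with earlier results of these data known. Full statistics were given for genes with an adjusted p under 0.05 and the 5 of smallest p among the other reported genes. Of the listed pathway genes, the 18 reported ones were measured. The labels give an animal number per section, and the series describes groups of 4 to 5 rats. The limma and permutation p-values set a difference against the spread between these rats. Those of the mixed model rest on the spread between sections where it put the spread between rats at 0. The number of rats, and not a read depth, limits the precision.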

Additional observations from a re-analysis of the deposited data

Results flagged for a closer look

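Dbh in SHR Cocktail rat 4595 was at -5.49, while the nearest other SHR rat was at -2.63 and the other 4 lay between -2.63 and -1.78. It was the 1 rat that stood apart among 38 groups of rats tested for an outlying value (18 reported genes in each strain, and the median Ct), and chance alone is set to mark about 1 group in 20. In the sections of that rat with both Th and Agtrap measured, Dbh ran from -10.0 to -4.30 with a median of -7.43. In the 2 sections without them it was -0.64 and -0.39. With those 2 sections left out the strain difference of Dbh was -2.63 (limma, adjusted p = 0.0818), and without rat 4595 altogether it did not pass either. What sets these sections apart was not tested.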

How the results depend on the processing

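The count of 7 genes fell to 1 (Alox5ap; 1 higher, 0 lower in SHR) with no normalisation, where the median cycle number of the strains stays in the values. It was 11 (9 higher, 2 lower) when centred on the median of Ace, Actb, EiF4e and Rgs4, 2 of which were lower in SHR; there Actb (1.72), Ltb4r (1.84) and Ptgs1 (1.56) turned sign and passed. Leaving out each Cocktail rat gave 5 to 8 calls, 1 to 3 of them higher. The count of genes higher in SHR was 1 in place of 2, through the loss of Agtrap, with raw values centred on the section median, relative to EiF4e, with missing values at the gene's lowest value or at the cycle limit, with the median over sections, without the rats of 1 section, with the range of the animal number (1694 to 1701 or 4595 and above) as a factor, and in rats numbered over 4000 alone. It was also 1 among genes with a value in 90% of sections, where Alox5ap was not tested. Weighting rats by their sections gave 10 calls, the 9 Cocktail rats alone 8, also when centred on the median, and the mixed model 9; Dbh was gained in all 4, Ptgs1 in the weighted fit and the mixed model, and Agtrap was lost in all but the weighted fit. Of 22 alternatives, Alox5ap passed 21 of the 21 that tested it, Ace and Jun 21, Agtr1a and Rgs4 20, Il10 16 and Agtrap 9. The first 5 passed with every single rat left out. Leaving out the 2 sections without Th and Agtrap, averaging near-identical sections, fitting the 9 rats on centred values, leaving out control rats, pairing genes and dropping sections above 18 cycles for the median Ct were chosen after seeing the data. Without WKY rat 4614 the median Ct differed by -1.98 (exact permutation p = 0.0357). Over the other left-out rats the difference ran from -1.78 to -1.11. With the median over a rat's sections it was -0.21 (exact permutation p = 0.857). The contrast with the controls gave 0 calls throughout. No paired analysis was possible because the rat numbers are animals of 1 strain. With 5 and 4 rats the standard errors ran from 0.405 (EiF4e) to 1.36 (Il1b), so what could be called differed by gene: 1.10 passed for Agtrap and -2.30 did not for Dbh.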
